A study of Mus musculus with 11 samples.

Results

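Nos3, Klf2, Klf4, Edn1, Ednra, Ednrb, Ece1, Gch1, Ddah1 and Ddah2 are 10 genes that set vascular tone through nitric oxide and endothelin. They were taken by gene symbol from the platform's annotation, with the brightest transcript cluster used for each symbol. A transcript cluster is a set of probes that gives 1 value, and 19572 clusters were named by 1 gene symbol. Of the 10 genes, 9 were measured, each by 1 cluster, among 22206 clusters in all, and Ednra was not analysed here. The rule lists the genes by name, and brightness made no choice among the members, as each had 1 cluster. The list itself was chosen with earlier results of these data known.

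Nitric oxide made by the endothelium relaxes the contractile cells around the liver sinusoid, among them the hepatic stellate cells, and endothelin contracts them. The cells that line the sinusoid, liver sinusoidal endothelial cells (LSEC), make both signals. Endothelial nitric oxide synthase needs the cofactor tetrahydrobiopterin and is inhibited by asymmetric dimethylarginine. The flow-induced factors KLF2 and KLF4 are known to raise Nos3 and to restrain Edn1 in endothelium.

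RNA of LSEC was profiled on Mouse Clariom S arrays, in 5 arrays of mice with floxed Atg5 alleles and a VE-cadherin-Cre transgene (knockout, titled autophagy deficient) and 6 arrays of mice with the same floxed alleles and no Cre (wild type). Atg5 encodes a protein needed to form autophagosomes. Mice of both genotypes were 8 weeks old when they went onto a high fat diet, which they ate for 2 weeks, so no array shows a standard diet. The VE-cadherin promoter is active in endothelium of all organs, and in embryos also in endothelium that gives rise to blood cells, so the deletion is not particular to the liver. The labels number the arrays as biological replicates without saying whether each is 1 mouse or a pool, and p-values therefore measure the spread between these samples. A level is the authors' RMA value on the log2 scale, and a difference is that of the knockout arrays minus that of the wild type arrays unless stated otherwise.

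The labelled cell type was checked against 12 LSEC markers, Stab2, Lyve1 and Clec4g among them. All were above background, and their mean level was 11.87 ± 0.12 in knockout and 11.85 ± 0.08 in wild type arrays (SD, n = 5 and 6). Atg5 itself lay between 7.48 and 7.90 in knockout and between 7.38 and 7.59 in wild type arrays, with a difference of 0.10 (SE 0.10). The sources used here do not place its probes relative to the deleted part, and its level is therefore no check of the genotypes. All 13 macrophage markers had higher means in the knockout arrays (median difference 1.23, list mean 7.62 to 10.22 in knockout and 6.94 to 8.36 in wild type), and all 14 hepatocyte markers had lower means (median -0.85, list mean 7.68 to 9.12 in knockout and 8.56 to 9.93 in wild type). Of 11 stellate markers, 10 had higher means (median 0.42, list mean 8.28 to 9.38 in knockout and 8.04 to 9.16 in wild type). Each measured marker of these 3 lists was above background on some array. The control rows of the array that target introns, another technical measure, averaged 5.75 to 5.96 in 4 arrays (knockout arrays 3 and 4 and wild type arrays 1 and 6) and 5.05 to 5.38 in the other 7.

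The sequence around the start of a gene is where KLF factors and flow-dependent elements are usually sought, so the RefSeq windows from 250 bases before to 50 bases after the start (build GRCm38.p6) are shown for both KLF factors, for the endothelin gene and for its receptor. Capitals mark matches, on either strand, to CACCC, the core bound by KLF factors, to GAGACC, the shear stress element, to TGANTCA, the AP-1 site, and to the GATA site, which was searched as the letters GATA with A or T before them and A or G after them.
Klf2, chr8:72318812-72319111, plus strand: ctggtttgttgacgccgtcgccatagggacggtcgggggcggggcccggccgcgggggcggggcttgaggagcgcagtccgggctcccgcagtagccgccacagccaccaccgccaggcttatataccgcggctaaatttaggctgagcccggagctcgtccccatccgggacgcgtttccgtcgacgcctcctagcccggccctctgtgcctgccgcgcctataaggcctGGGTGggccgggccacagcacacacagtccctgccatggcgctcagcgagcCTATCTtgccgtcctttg
Klf4, chr4:55532426-55532725, minus strand: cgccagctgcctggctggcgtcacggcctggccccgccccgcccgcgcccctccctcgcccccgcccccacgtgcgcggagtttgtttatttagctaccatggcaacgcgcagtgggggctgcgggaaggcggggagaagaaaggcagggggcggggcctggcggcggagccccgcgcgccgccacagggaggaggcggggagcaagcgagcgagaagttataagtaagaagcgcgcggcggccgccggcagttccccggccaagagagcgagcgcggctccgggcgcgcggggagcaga
Edn1, chr13:42301226-42301525, plus strand: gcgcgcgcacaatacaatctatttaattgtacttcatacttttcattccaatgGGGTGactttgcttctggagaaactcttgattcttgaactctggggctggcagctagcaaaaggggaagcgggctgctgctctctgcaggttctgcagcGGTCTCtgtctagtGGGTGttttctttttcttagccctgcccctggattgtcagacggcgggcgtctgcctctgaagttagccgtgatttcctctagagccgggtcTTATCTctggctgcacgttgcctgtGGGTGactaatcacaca
Ednrb, chr14:103843652-103843951, minus strand: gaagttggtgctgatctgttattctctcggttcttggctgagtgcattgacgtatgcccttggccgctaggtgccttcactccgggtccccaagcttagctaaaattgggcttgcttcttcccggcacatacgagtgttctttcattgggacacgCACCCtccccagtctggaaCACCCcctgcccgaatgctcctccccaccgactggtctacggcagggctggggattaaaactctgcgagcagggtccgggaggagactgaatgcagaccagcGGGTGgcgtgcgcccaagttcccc

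The Edn1 window holds the KLF core at -197, -84 and 34, the shear stress element at -98 and a GATA site at 9, counted from the start of the gene, with negative positions before it. The Ednrb window holds the KLF core at -95, -76 and 27, and the Klf2 window holds it at -19 beside a GATA site at 33. The Klf4 window holds no match to any of the 4 motifs, and no 2 matches overlap in these 4 windows. Over the 8 genes with a window, 6 held the KLF core in at least 1 window and 1 held the shear stress element. The AP-1 site as searched, TGANTCA, was held by 0 and a GATA site by 3. Variants of the AP-1 site were not searched, so the 0 does not show that a gene lacks one. Counted by window, 8 of 11 held the KLF core, 1 the shear stress element, 0 the AP-1 site as searched and 3 a GATA site. Ece1 alone gave 4 of the windows. Its windows 1 and 2 overlap, and their KLF matches, at -173 and -216, are the same bases counted in each. The same motifs stood in 57.5%, 16.4%, 7.81% and 29.8% of the 32851 windows of the whole table, so the matches are a description of the sequence and not sites of binding.

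None of the 9 genes passed any of the rules applied to the difference between genotypes. No member reached an adjusted p of 0.05 in limma's moderated test with Benjamini-Hochberg adjustment, and 0% of all clusters did. At an unadjusted p of at most 0.05, 0 of 9 members were called, where 6.39% of all clusters were. The study's own rule, a fold of at least 1.5 with an uncorrected p of at most 0.05, also took 0 of 9 members and 1.03% of all clusters. In 0 of 9 members were the genotypes free of overlap, against 0.473% of all clusters. The knockout mean was the higher in 5 members and the lower in 4, with a median difference of 0.003, where all clusters had a median of -0.02 and 46.0% of them were above 0. The size of the difference, sign aside, had a median of 0.07 in the members and 0.12 in all clusters. Because the samples are bulk RNA, fewer cells of a type and less RNA per cell cannot be told apart.

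**Figure D1:**
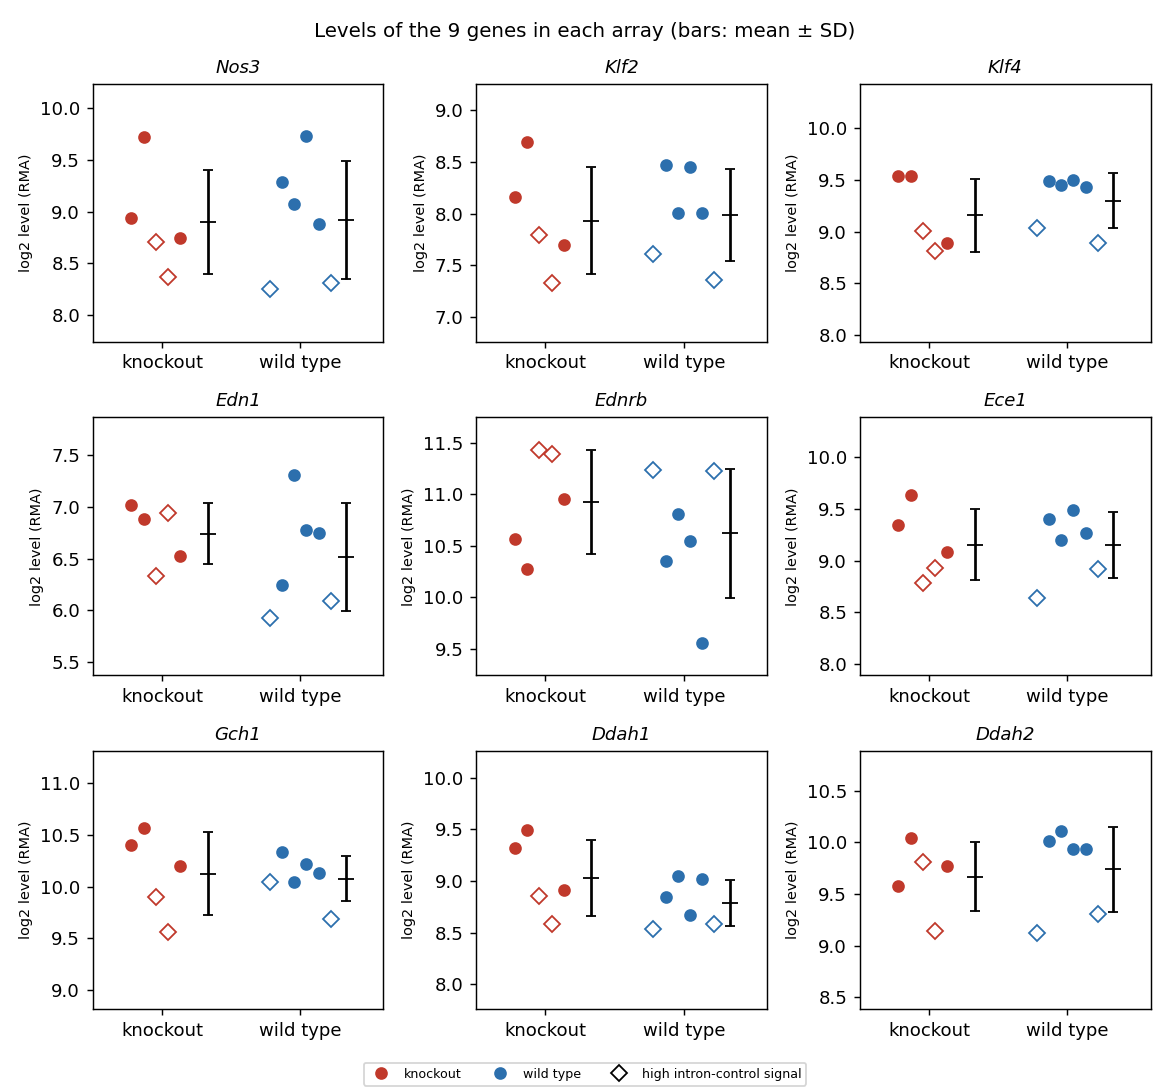
Level (RMA, log2) of each of the 9 measured genes in every array, with knockout arrays on the left and wild type arrays on the right of each panel. Black bars are the mean ± SD (n = 5 and 6). Open diamonds are the 4 arrays of high intron-control signal. Each panel spans the same number of log2 units around its own centre, and the genotypes overlap in all 9 panels.

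Nos3, the endothelial nitric oxide synthase, had levels of 8.94, 9.72, 8.71, 8.37 and 8.74 in the knockout arrays, against a lowest of 8.25, a median of 8.975 and a highest of 9.73 in the wild type arrays. The genotypes spanned nearly the same range, with knockout array 2 and wild type array 4 at the top. The difference was -0.03 (SE 0.28), with a 95% interval of -0.64 to 0.59 and an exact permutation p of 0.946 over the 462 splits of the arrays. Its fold between genotypes therefore had a 95% interval of 0.643 to 1.50, and these arrays do not tell apart changes within that interval.

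Gch1 encodes GTP cyclohydrolase, which opens the synthesis of tetrahydrobiopterin. Its levels were 10.40, 10.57, 9.90, 9.56 and 10.20 in the knockout arrays, against a lowest of 9.69, a median of 10.085 and a highest of 10.33 in wild type arrays. The knockout arrays reached both higher and lower than the wild type arrays. The difference was 0.05 (SE 0.18, 95% interval -0.33 to 0.43, exact permutation p = 0.803).

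Ddah1 and Ddah2 encode the dimethylarginine dimethylaminohydrolases that degrade asymmetric dimethylarginine. Ddah1 had levels of 9.32, 9.49, 8.85, 8.58 and 8.91 in the knockout arrays, against a lowest of 8.53, a median of 8.755 and a highest of 9.05 in wild type arrays. Knockout arrays 1 and 2 were above every wild type array, and the other 3 lay inside the wild type range. The difference of Ddah1 was 0.25 (SE 0.17, 95% interval -0.12 to 0.61, exact permutation p = 0.201), and it had the lowest adjusted p of the 9 genes, 0.782 in limma.

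Ddah2 had levels of 9.58, 10.04, 9.81, 9.14 and 9.77 in the knockout arrays, against a lowest of 9.12, a median of 9.94 and a highest of 10.11 in wild type arrays. All 5 knockout arrays lay inside the wild type range. The difference was -0.07 (SE 0.21, 95% interval -0.52 to 0.38, exact permutation p = 0.768).

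Of the flow-induced transcription factors, Klf2 had levels of 8.16, 8.69, 7.79, 7.33 and 7.70 in the knockout arrays, against a lowest of 7.36, a median of 8.01 and a highest of 8.47 in wild type arrays. Knockout array 2 was the highest and knockout array 4 the lowest of all 11. The difference was -0.05 (SE 0.25, 95% interval -0.59 to 0.49, exact permutation p = 0.879). Klf4 had levels of 9.54, 9.54, 9.01, 8.81 and 8.89 in the knockout arrays, against a lowest of 8.89, a median of 9.44 and a highest of 9.50 in wild type arrays. Knockout arrays 1 and 2 were just above the wild type arrays and the other 3 stood near their low end. The difference of Klf4 was -0.14 (SE 0.17, 95% interval -0.52 to 0.23, exact permutation p = 0.455).

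Edn1 encodes the precursor of endothelin-1. Its levels were 7.02, 6.88, 6.33, 6.94 and 6.53 in the knockout arrays, against a lowest of 5.93, a median of 6.495 and a highest of 7.31 in wild type arrays. The wild type arrays had both the lowest and the highest level, and 4 of 5 knockout arrays were above the wild type mean. The difference was 0.22 (SE 0.23, 95% interval -0.28 to 0.72, exact permutation p = 0.416). The mean signal of the antigenomic background rows was 4.67 to 5.17 per array, and all 9 genes were above it on all 11 arrays.

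Ece1, the converting enzyme that cuts big endothelin to its active form, had levels of 9.35, 9.64, 8.78, 8.93 and 9.08 in the knockout arrays, against a lowest of 8.64, a median of 9.235 and a highest of 9.49 in wild type arrays. The genotypes overlapped over most of their range. The difference was 0.003 (SE 0.18, 95% interval -0.39 to 0.40, exact permutation p = 0.991).

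Ednrb encodes the endothelin B receptor, which on sinusoidal endothelium takes up endothelin and stimulates nitric oxide synthesis. Its levels were 10.57, 10.27, 11.43, 11.39 and 10.95 in the knockout arrays, against a lowest of 9.56, a median of 10.68 and a highest of 11.23 in wild type arrays. Knockout arrays 3 and 4 were the highest of all 11, and wild type array 5 was the lowest. The difference was 0.30 (SE 0.30, 95% interval -0.34 to 0.95, exact permutation p = 0.413), and without wild type array 5 it was 0.09. Ednrb thus had the largest difference of the 9 genes and also the largest spread.

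**Figure D2:**
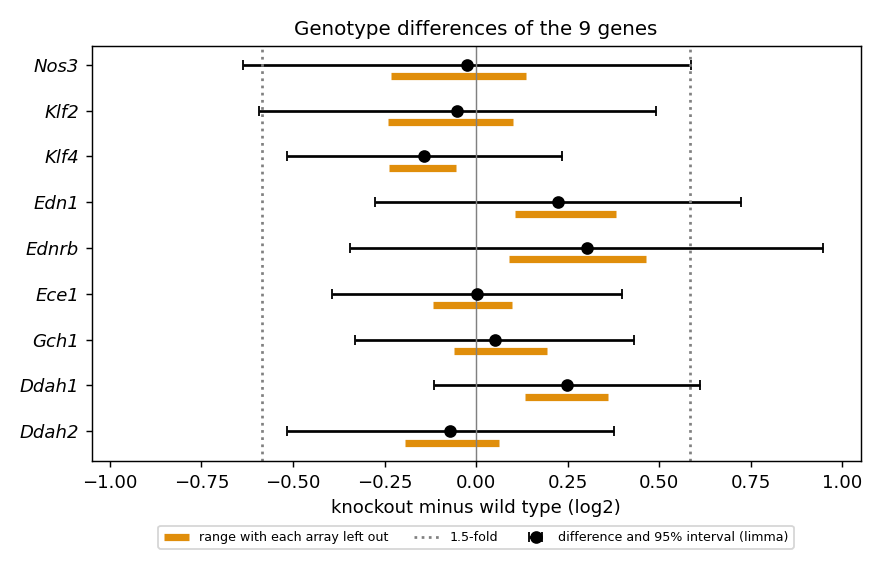
Difference of each of the 9 genes, knockout minus wild type (log2), with the 95% interval from limma (black) and the range of the difference when each array is left out in turn (orange). Dotted lines mark a 1.5-fold difference. All 9 intervals include 0.

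The genes varied more between arrays of 1 genotype than most genes on the array did. The comparison was with all clusters, dim ones included, whose weak signals RMA compresses, and clusters of matched level were not compared. After the genotype means were taken out, the SD of all clusters had a median of 0.24, and all 9 members were above it, between 0.297 and 0.577. Ednrb (94.9th percentile of all clusters), Nos3 (93.5th), Klf2 (90.0th) and Edn1 (87.0th) were the most variable, and Ddah1 (67.5th) and Klf4 (70.0th) the least. Over the 11 arrays Ednrb spanned 1.87 on the log2 scale, Nos3 1.48, Edn1 1.38 and Klf2 1.36.

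This variation ran with the intron-control signal. With genotype means taken out, 8 of 9 members were lower in the 4 arrays of high intron-control signal than in the other 7, and Ednrb was higher. The difference, high minus low, was -0.78 for Nos3, -0.69 for Klf2, -0.56 for Ddah2, -0.53 for Ece1, -0.48 for Edn1 and for Gch1, -0.46 for Klf4, -0.43 for Ddah1 and 0.86 for Ednrb. Sign aside, these values exceeded those of 79.3% to 96.7% of all clusters, whose median was 0.19. In 3 of 9 members the arrays of high and low signal did not overlap, where 14.1% of all clusters were so divided. Nos3 was at 8.25 to 8.71 in the 4 arrays of high signal, against 8.74 to 9.73 in the 7 of low signal, and Ece1 was at 8.64 to 8.93 in the arrays of high signal, against 9.08 to 9.64 in those of low signal. Ednrb was at 11.22 to 11.43 in the 4 arrays of high signal, against 9.56 to 10.95 in the 7 of low signal. The part of the intron-control signal in the members' levels was not tested.

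**Figure D3:**
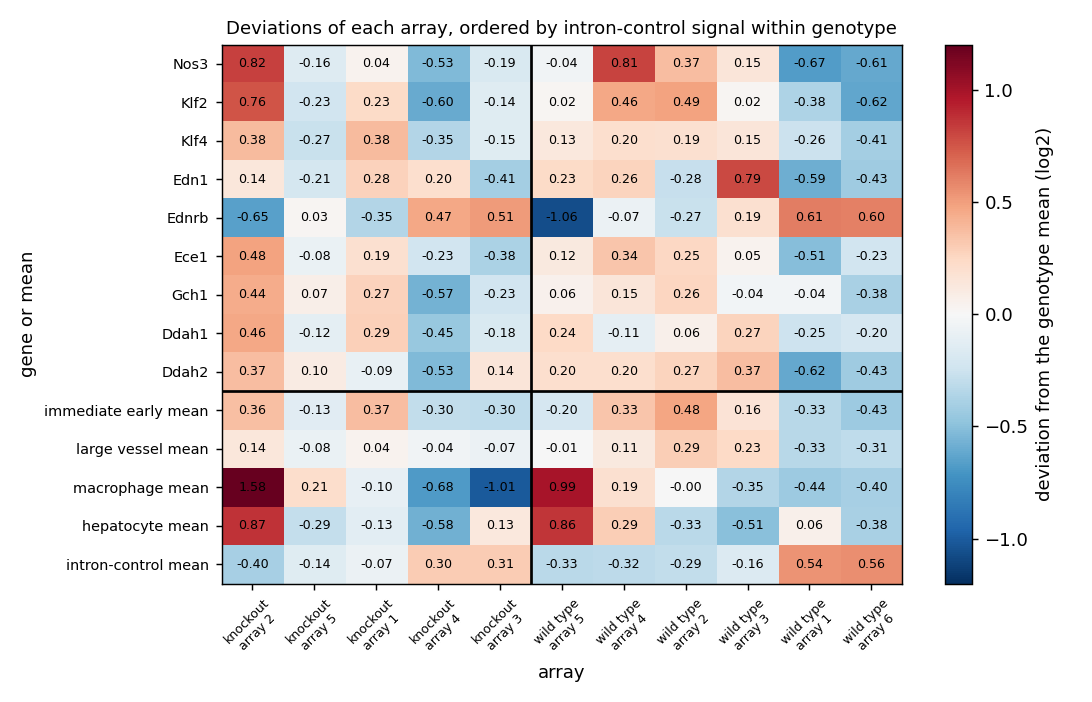
Deviation of each array from its genotype mean (log2, printed in each cell, colour scale ending at 1.2) for the 9 genes and for 5 means of technical or marker rows. Knockout arrays are on the left and wild type arrays on the right, each ordered from low to high intron-control mean. The 4 arrays of high intron-control signal have Ednrb above its genotype mean, and Nos3, Klf2, Klf4, Ece1, Gch1 and Ddah1 below theirs.

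Each class of arrays held both genotypes, so the difference could be taken within it. Among the 7 arrays of low signal (3 knockout, 4 wild type), the differences were -0.11 for Nos3, 0.21 for Gch1, 0.345 for Ddah1, -0.20 for Ddah2, -0.05 for Klf2, -0.14 for Klf4, 0.04 for Edn1, 0.02 for Ece1 and 0.28 for Ednrb. Among the 4 arrays of high signal (2 knockout, 2 wild type) they were 0.26 for Nos3, -0.135 for Gch1, 0.16 for Ddah1, 0.26 for Ddah2, 0.075 for Klf2, -0.055 for Klf4, 0.625 for Edn1, 0.075 for Ece1 and 0.185 for Ednrb. No member had an adjusted p below 0.05 from limma in either class. Edn1 alone met the study's rule there, in the arrays of high signal, with levels of 6.33 and 6.94 in the knockout arrays 3 and 4 against 5.93 and 6.09 in the wild type arrays 1 and 6 (limma's adjusted p = 0.766). In those 4 arrays 1.28% of all clusters met that rule, and 2 against 2 arrays cannot reach an exact permutation p below 0.333. The genotypes did not overlap there for Nos3, Edn1 and Ednrb, a division seen in 36.2% of all clusters.

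The study's rule was met upward by 13 of 13 macrophage markers (0.671% of all clusters) and downward by 8 of 14 hepatocyte markers (0.356%). None of these markers passed an adjusted p of 0.05 in limma (lowest 0.765). The members were refitted with the macrophage or the hepatocyte mean as a covariate. Each mean differs with the genotype, so such a fit cannot fully separate it from the genotype. With the macrophage mean in the fit, the Ednrb difference was 1.09 (SE 0.23, limma's adjusted p = 0.101), which met the study's rule, as 8.36% of all clusters did in that fit. With the hepatocyte mean in the fit it was -0.30 (SE 0.31). Ddah1 was 0.48 (SE 0.20, limma's adjusted p = 0.670) with the hepatocyte mean and -0.09 (SE 0.18) with the macrophage mean. Nos3 and Klf2 were 0.37 and 0.34 with the hepatocyte mean, and -0.57 and -0.55 with the macrophage mean. In 8 of 9 members the difference had opposite signs with the hepatocyte and with the macrophage mean, and Edn1 was positive with each (0.25 and 0.03). The part of other cells in the members' levels was not tested.

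The levels of the members varied together across arrays. Of the 36 pairs among the 9 genes, the 28 without Ednrb all had a positive correlation of their deviations from the genotype means (Pearson r 0.20 to 0.95), and the 8 with Ednrb all had a negative one (-0.78 to -0.43). Within the 7 arrays of low intron-control signal, 25 of the 28 were positive, with all 28 between -0.30 and 0.98, and the 8 with Ednrb lay between -0.50 and 0.16. All correlations share the same 11 libraries. Over all clusters, 46.1% of the variance left after the genotype means lay on 1 component, a pattern over the arrays that many genes share. Whether the members go together more closely than other genes was not tested.

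For 16 relations a permutation test of 100000 pairings was made, with Benjamini-Hochberg adjustment over the 16, and 9 passed by Pearson's r and 9 by Spearman's rho. The closest was Klf2 with Nos3, at r = 0.946 and rho = 0.938 (permutation p = 5.0e-05 and 7.0e-05, adjusted 0.00075 and 0.00080). Without the 2 arrays farthest from the median of Klf2 it was r = 0.910, and within the 7 arrays of low signal r = 0.903 (exact p = 0.0024, adjusted 0.038). It was the 1 relation of 16 that passed within those 7 arrays. Klf2 with Klf4 gave r = 0.917 and rho = 0.941 (permutation p = 0.00014 and 0.0001, adjusted 0.00075 and 0.00080), r = 0.874 without 2 arrays, and r = 0.762 within the 7 arrays (exact p = 0.043, adjusted 0.210). Klf4 with Nos3 gave r = 0.834 and rho = 0.856 (permutation p = 0.0014 and 0.0011, adjusted 0.0056 and 0.0035), r = 0.751 without 2 arrays and r = 0.560 within the 7.

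Nos3 with Gch1, the synthase and the enzyme of its cofactor, gave r = 0.761 and rho = 0.788 (permutation p = 0.0067 and 0.0055, adjusted 0.015 and 0.013). Without 2 arrays r was 0.719 (adjusted exact p = 0.053), which no longer passed at n = 9 (wild type array 4 and knockout array 2 left out), and within the 7 arrays r was 0.754 (exact p = 0.058, adjusted 0.210). Ddah1 with Ddah2 gave r = 0.713 and rho = 0.774 (permutation p = 0.016 and 0.0067, adjusted 0.028 and 0.013), r = 0.787 without 2 arrays and r = 0.404 within the 7. Klf2 and Klf4 also went with the mean of 17 immediate early genes, transcripts such as Fos, Egr1 and Atf3 that cells switch on during isolation. That relation was r = 0.899 and rho = 0.884 for Klf2 (permutation p = 0.00014 and 0.00059, adjusted 0.00075 and 0.0024) and r = 0.882 and rho = 0.843 for Klf4 (permutation p = 0.0019 for each, adjusted 0.0061 and 0.0049). Within the 7 arrays r was 0.794 for Klf2 (exact p = 0.036, adjusted 0.210) and 0.700 for Klf4. The immediate early mean was 10.43 ± 0.34 in knockout and 10.53 ± 0.38 in wild type arrays (SD, n = 5 and 6), and its part in the KLF levels was not tested.

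**Figure D4:**
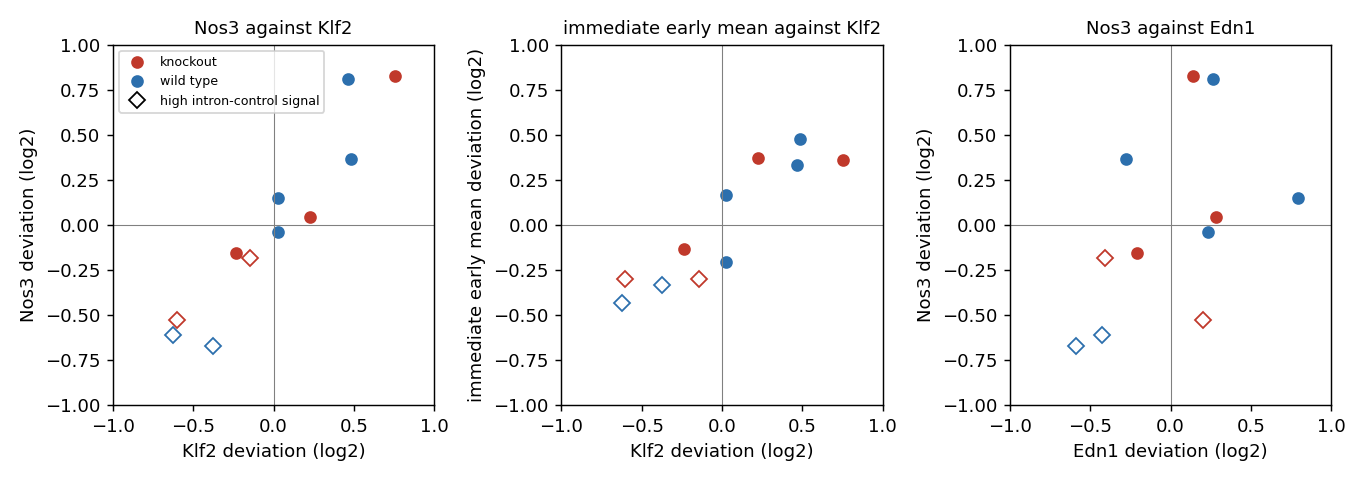
Deviations from the genotype mean (log2) of Nos3 against Klf2, of the immediate early mean against Klf2, and of Nos3 against Edn1, with 1 point per array (red knockout, blue wild type, open diamonds high intron-control signal). Points of both genotypes lie along the diagonal in the first panel (r = 0.946) and scatter in the third (r = 0.472).

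None of the 6 relations of Edn1 passed the test. Edn1 had r = 0.352 and rho = 0.442 with Klf2 (adjusted permutation p = 0.287 and 0.185), 0.566 and 0.547 with Klf4 (0.101 and 0.097), and 0.472 and 0.591 with Nos3 (0.163 and 0.088). It had r = 0.567 and rho = 0.582 with Ece1 (0.101 and 0.088), -0.427 and -0.582 with Ednrb (0.204 and 0.088), and 0.472 and 0.564 with the immediate early mean (0.163 and 0.094). Within the 7 arrays of low signal those with Klf2, Ece1, Ednrb and the immediate early mean were -0.11, -0.02, 0.16 and -0.03, of the opposite sign. Relations with marker means passed over all arrays for Nos3 and Gch1. Nos3 with the mean of 12 arterial and large vessel markers had r = 0.793 and rho = 0.891 (adjusted permutation p = 0.011 and 0.0024), and 0.507 within the 7 arrays. Gch1 with the macrophage mean had r = 0.707 and rho = 0.765 (adjusted permutation p = 0.028 and 0.014), and 0.460 within the 7 arrays. Ddah1 with the hepatocyte mean did not pass (r = 0.501, rho = 0.418, adjusted permutation p = 0.159 and 0.205).

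For each member the 3 genes with the most similar deviations over the 11 arrays were taken by Pearson's r from 15217 named clusters above background, as a description with no test. Nos3 was followed most closely by Acadvl (0.989), Klf13 (0.976) and Hyal2 (0.972). Klf2 was followed by Jund (0.982), Tmem234 (0.981) and Stat5b (0.980), and Klf4 by Socs1 (0.982), Mrpl27 (0.979) and Tmem198b (0.976). Edn1 was nearest to Bicd2 (0.971), Eef1akmt2 (0.933) and Rfk (0.915). Ednrb was nearest to Ranbp6 (0.980), Zfp60 (0.962) and Dcun1d4 (0.938), and Ece1 to Ubac2 (0.988), Mocs1 (0.984) and Decr2 (0.981). Gch1 was nearest to Mfng (0.956), AW112010 (0.955) and Coa8 (0.954), Ddah1 to Cnrip1 (0.981), Trmt2b (0.977) and Pank2 (0.970), and Ddah2 to Tbcb (0.980), Pole3 (0.970) and Gng11 (0.969). None of these 27 genes is a member.

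The genes around the members were counted in 5 lists, and no gene of any list passed an adjusted p of 0.05 (lowest 0.765 in limma). At an unadjusted p of at most 0.05, limma took 6.39% of all clusters. In the lists it took 2 of 18 genes of nitric oxide synthesis and 1 of 11 of the cyclic GMP response. It took 0 of 19 of endothelin signalling, 0 of 20 of flow sensing and 3 of 21 other vasoactive genes. Of 18 measured genes of nitric oxide synthesis and its control, 9 had higher and 9 lower means in the knockout arrays, with a median difference of -0.03, and 2 met the study's rule upward (0.671% of all clusters did). They were Slc7a1, a transporter that brings arginine into cells, and Arg2, an arginase that consumes it. Slc7a1 had 8.61, 8.70, 9.64, 10.08 and 9.31 in the knockout arrays, against a lowest of 7.52, a median of 8.515 and a highest of 9.31 in wild type arrays, a difference of 0.73 (SE 0.33, exact permutation p = 0.095). Arg2 had 8.26, 8.29, 6.30, 6.57 and 6.97 in the knockout arrays, against a lowest of 6.03, a median of 6.49 and a highest of 7.20 in wild type arrays, a difference of 0.78 (SE 0.36, exact permutation p = 0.108). Knockout arrays 1 and 2 held Arg2 up and knockout arrays 3 and 4 held Slc7a1 up. Knockout arrays 3 and 4 are among the 4 arrays of high intron-control signal. Slc7a1 was at 9.18 to 10.08 in those 4 arrays of both genotypes, against 7.52 to 9.31 in the other 7. With genotype means taken out, the difference, high minus low signal, was 1.02 for Slc7a1 and -0.74 for Arg2. The part of that signal in these levels was not tested. The Slc7a1 call ended when any 1 of 7 arrays was left out (knockout 3, 4 or 5, wild type 2, 3, 4 or 5), at 0.53 to 0.74, and the Arg2 call when any 1 of 8 was (knockout 1, 2 or 5, wild type 1, 2, 3, 4 or 6), at 0.52 to 0.85. Of 15 other settings, 3 ended the Slc7a1 call (0.63 with repeated quantile normalization, 0.59 with the hepatocyte mean and 0.74 with sex, inferred from Y-linked transcripts, as a block). The Arg2 call ended under 5, at 0.73 with the replicate number and 0.70 with inferred sex as a block, 0.43 with array weights, 0.035 in the 4 arrays of high intron-control signal and -0.06 with the macrophage mean.

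Downstream of nitric oxide, 6 of 11 measured genes of the cyclic GMP response had higher and 5 lower means (median 0.003), and 0 met the study's rule. The smallest unadjusted p was that of Gucy1b1, the beta subunit of the soluble guanylate cyclase that senses nitric oxide. It had 7.99, 8.19, 7.54, 8.23 and 8.13 in the knockout arrays, against a lowest of 7.15, a median of 7.73 and a highest of 7.90 in wild type arrays, a difference of 0.37 (SE 0.16, exact permutation p = 0.048). In 4 of 5 knockout arrays it was above every wild type array. Prkg1, the kinase that cyclic GMP activates, differed by 0.32 (SE 0.22), Pde5a, which breaks cyclic GMP down, by 0.30 (SE 0.17), and Nppc, the precursor of C-type natriuretic peptide, by -0.17 (SE 0.12). Prkg1 met the study's rule with the macrophage mean in the fit (0.73). The stellate list, cells known for this pathway, had a mean of 8.93 ± 0.41 in knockout and 8.58 ± 0.40 in wild type arrays (SD, n = 5 and 6), and its part in these values was not tested.

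Of 19 measured endothelin signalling genes, 10 had higher and 9 lower means (median 0.03), and 0 met the study's rule. The 4 with the smallest unadjusted p were Rgs5 (0.42, SE 0.20), Rgs4 (0.48, SE 0.30) and Rgs2 (0.29, SE 0.20), which speed the shut-off of G proteins, and Edn2, another endothelin (-0.20, SE 0.12). Rgs5 is also on the stellate list. Rgs4 met the study's rule without knockout array 3 (0.74) and with the hepatocyte mean in the fit (0.82), and was -0.26 with the macrophage mean. Of 20 genes of flow sensing and of the KLF2 and KLF4 axis, 17 had higher and 3 lower means (median 0.09), where 46.0% of all clusters were above 0, and 0 met the study's rule. Ccm2, of the complex that restrains KLF2 and KLF4 signalling, differed by 0.20 (SE 0.10, exact permutation p = 0.017), and all 5 knockout arrays (9.14, 9.32, 9.31, 9.33 and 9.30) were above the wild type mean of 9.08. Mapk7, the kinase known as ERK5 that drives Klf2, differed by 0.27 (SE 0.18), and by 0.59 with the macrophage mean in the fit, where it met the rule. Its target Mef2d differed by 0.16 (SE 0.10), and the thrombomodulin gene Thbd, a known KLF2 target, by -0.27 (SE 0.18).

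Of 21 other vasoactive genes, 8 had higher and 13 lower means (median -0.01). Ptgs2, the inducible cyclooxygenase that starts prostanoid synthesis, met the study's rule upward. Its levels were 9.28, 7.88, 7.36, 8.36 and 7.54 in the knockout arrays, against a lowest of 5.36, a median of 6.88 and a highest of 7.87 in wild type arrays, and 3 of 5 knockout arrays were above every wild type array. The difference was 1.33 (SE 0.41, exact permutation p = 0.017), a fold of 2.52, with an adjusted p of 0.765 in limma, and it met the rule without any 1 array (1.03 to 1.56). With the macrophage mean in the fit it was 1.10 and no longer met the rule. Ephx2, an epoxide hydrolase of arachidonic acid products, was a dim gene with knockout levels close to background. Its levels were 4.5 to 5.8 (median 5.35) in the knockout arrays and 5.26 to 6.69 (median 5.68) in the wild type arrays. It was above the mean of the antigenomic background rows on 10 of 11 arrays. In knockout array 4 it was below that mean, at 4.5 against 4.73. Ephx2 met the rule downward (0.356% of all clusters did), at -0.60 (SE 0.27), with an exact permutation p of 0.093. Leaving out any 1 of 7 arrays ended that call (knockout 1, 3, 4 or 5, wild type 1, 4 or 5), at -0.64 to -0.41, and with the hepatocyte mean in the fit it was 0.14. Of 15 other settings 8 ended the call. They were the hepatocyte mean and 7 settings in which the difference was -0.60 to -0.52.

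**Figure D5:**
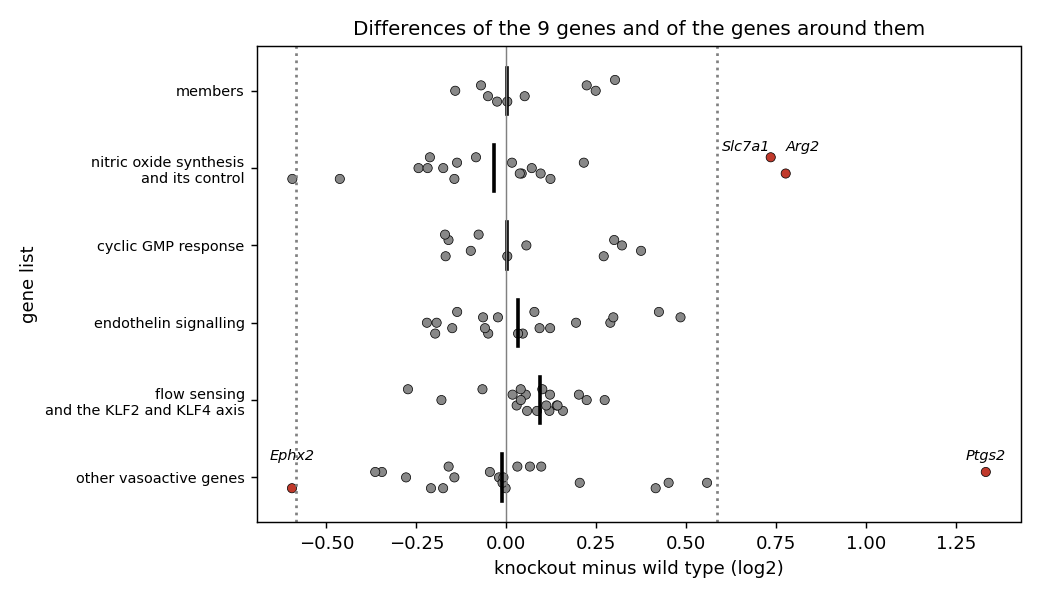
Difference of each measured gene, knockout minus wild type (log2), for the 9 members and for the 5 lists around them. Each point is 1 gene, black bars are medians, dotted lines mark a 1.5-fold difference, and red points met the study's rule (Slc7a1, Arg2, Ptgs2 and Ephx2). The members lie between -0.14 and 0.30.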

How the data were processed

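Affymetrix Expression Console and RMA made the values, per the submitters' processing notes, and their versions are not given in the sources used here. What the authors deposited is log2 values, judged so from a range of 2.15 to 13.79. RMA makes the distribution of values alike between arrays, so a change shared by most genes is removed, and it compresses weak signals. Array medians were 6.61 to 6.745, and precision is limited by how many arrays there are. Of 28846 rows, 6640 control rows (5222 of them intron controls, 23 antigenomic) were left out, and 22206 clusters were tested. The platform annotation named 19572 clusters by 1 symbol, and where a symbol had several clusters (55 symbols) the brightest was used. The genome build of the array annotation is not given in the sources used here, and promoter windows came from RefSeq.

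The genotype difference was fitted for all clusters and all 11 arrays by lmFit and eBayes of limma 3.58.1 (R 4.3.3), with Benjamini-Hochberg adjustment, and the code was tested on simulated data. Single genes were also compared by a two-sided exact permutation test over 462 splits, whose smallest p is 0.0022. Relations used deviations from genotype means. Alternatives were other scalings, array weights, a filter on dim clusters, a replicate block, covariates and leaving out each array. The arrays were divided by intron-control signal after the data were seen. The replicate numbers were treated as names. No 2 arrays were copies (highest correlation 0.992, with 1.75% identical values).

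The members and lists were chosen with earlier results of these data known. Named were all members, the genes of each list that met the study's rule or else the 4 of smallest unadjusted p, and the 3 nearest genes of each member. Listed genes without a named cluster, Ednra among them, were not analysed here.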

Additional observations from a re-analysis of the deposited data

Results flagged for a closer look

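Ccm2 in knockout array 1 stood apart from the other knockout arrays, at 9.14 where the other 4 lay between 9.30 and 9.33. The gap was 0.842 of the whole range of the 5 arrays, above Dixon's critical value of 0.71. It was 1 of 70 groups of values examined, where chance would mark about 1 in 20.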

How the results depend on the processing

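The 9 differences were recomputed under 26 alternatives each. Of the 234 values, 191 kept their direction, 43 turned sign, 0 passed an adjusted p of 0.05 and 2 met the study's rule. The number of members meeting it was 1 with the macrophage mean, where 8.36% of all clusters met it. It was also 1 with only the arrays of high intron-control signal, where 1.28% of all clusters met it. Among those arrays 3 members had genotypes free of overlap, as did 36.2% of all clusters. Covariates of intron-control signal, its classes and sex were added after the data were seen. The labels used give no sex, which was inferred from Y-linked transcripts (present in knockout array 3 and wild type arrays 3 and 6). The values that turned sign, leaving out single arrays aside, were as follows, and the cause was not tested. With the hepatocyte mean Nos3 was 0.37, Klf2 0.34, Klf4 0.087, Ddah2 0.16 and Ednrb -0.30. With the macrophage mean Ece1 was -0.39, Gch1 -0.31 and Ddah1 -0.087. With the immediate early mean Nos3 was 0.10 and Klf2 0.065. Nos3 was 0.0135 with median centring, 0.026 with the intron-control mean and 0.027 with its classes as a block. With only the arrays of high signal Nos3 was 0.26, Klf2 0.075, Gch1 -0.135 and Ddah2 0.26. Ece1 was -0.098 and Gch1 -0.027 with repeated quantile normalization, Ece1 was -0.105 and Gch1 -0.026 with array weights, and Ece1 was -0.0325 with sex as a block. Arrays with the same replicate number did not all deviate together (correlations of 0.006, 0.389, 0.079, -0.321 and 0.025 for numbers 1 to 5). With the replicate number as a block Ece1 was -0.044 and Gch1 -0.026, Ednrb was 0.42, and no member's call changed, while Arg2 no longer met the study's rule (0.73).

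Leaving out each array in turn gave -0.23 to 0.14 for Nos3, -0.24 to 0.10 for Klf2, -0.24 to -0.055 for Klf4, 0.11 to 0.38 for Edn1, 0.09 to 0.465 for Ednrb, -0.12 to 0.10 for Ece1, -0.06 to 0.19 for Gch1, 0.13 to 0.36 for Ddah1 and -0.19 to 0.062 for Ddah2. The list of nitric oxide synthesis had a median of 0.21 with the hepatocyte and -0.26 with the macrophage mean, and with the macrophage mean the cyclic GMP list had -0.24 and the endothelin list -0.13. Named genes that turned sign were Arg2 (-0.057) and Rgs4 (-0.26) with the macrophage mean, Prkg1 (-0.018) and Ephx2 (0.14) with the hepatocyte mean, and Pde5a (-0.02) and Edn2 (0.025) in the arrays of high signal. Named genes that newly met the study's rule were Prkg1 (0.73) and Mapk7 (0.59) with the macrophage mean, and Rgs4 with the hepatocyte mean (0.82) and without knockout array 3 (0.74). The relations that no longer passed within the 7 arrays of low signal were Klf2 with Klf4 (0.762) and with the immediate early mean (0.794), Klf4 with Nos3 (0.560) and with the immediate early mean (0.700), Nos3 with Gch1 (0.754) and with the large vessel mean (0.507), Ddah1 with Ddah2 (0.404) and Gch1 with the macrophage mean (0.460). Edn1 turned sign there with Klf2 (-0.105), Ece1 (-0.023), Ednrb (0.158) and the immediate early mean (-0.027), and Nos3 with Gch1 no longer passed without 2 arrays (0.719). Over all clusters, 228 met the study's rule, 537 with the hepatocyte mean, 1857 with the macrophage mean and 359 in the arrays of low signal. An adjusted p of 0.05 was passed by 0 clusters, by 2 with the hepatocyte mean, by 25 with the macrophage mean and by 1 without wild type array 5.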
